A study of Homo sapiens with 4 samples.

Results

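The unfolded protein response and its endoplasmic reticulum (ER) chaperones were followed in human cells labelled as DLD-1, a colorectal carcinoma line, with and without creatine. The set was a list of 30 named genes, matched by symbol in a table of 34545 genes. All 30 had a row and 29 passed the filter on low counts, as did 15302 genes of the whole table. RNA sequencing was done on 2 creatine-treated libraries and 2 control libraries, all labelled wild type. The labels give neither the dose nor the duration of creatine. Nor do they say whether the 2 libraries of a group came from separate cultures. A p-value here sets the difference between groups against the spread of libraries within a group, as estimated largely across genes. That spread may be technical. The study addressed creatine uptake and ferroptosis, a death by iron-driven lipid peroxidation, and the list was chosen with earlier results of these data known.

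Total counts were 51073738 and 48249693 in creatine libraries and 59860043 and 49207427 in controls, and 27 of the 30 genes had over 1000 counts in every library. Of 15 markers of colon epithelium, 13 were under 1 CPM, a count scaled to the size of its library, in all 4 libraries, CDX1 had no count in any, and EPCAM, CDX2 and VIL1 had counts in control 1 alone. The other 2, KRT8 and KRT18, are keratins of simple epithelia in general. Of 10 mesenchymal markers, 9 were over 10 CPM. The markers thus went against the label, and the cells are called by it only as labelled. The 2 keratins with the other colon markers summed to 328 and 343 CPM with creatine, against 393 and 398 CPM in controls. The mesenchymal ones summed to 5531 and 5437 CPM with creatine, against 6172 and 6061 CPM in controls. Most of it was VIM, averaging 2346 CPM with creatine and 2613 CPM in controls, and MMP14, averaging 1778 and 2087 CPM. Of the 10, 1 was higher with creatine (ZEB1) and 2 were lower (MMP2 and MMP14), at an edgeR adjusted p under 0.05. Over all genes tested, 9.15% were higher and 10.5% lower by that rule. Markers of secretory or plasma cells, which carry a large ER, summed to 275.5 and 281 CPM with creatine, against 350 and 388 CPM in controls, with 5 of 6 under 1 CPM and SDC1 making up nearly all. Immune markers summed to 148 and 150 CPM with creatine, against 180 and 170 CPM in controls, with CD68 alone over 1 CPM, and endothelial and fibroblast markers stayed under 10 CPM in sum. The part of these shifts in the results below was not tested.

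Proteins bound for the cell surface or for secretion fold in the ER, where chaperones hold them, disulfide isomerases join their cysteines, and ER-associated degradation (ERAD) removes those that fail. When unfolded protein builds up, the sensor IRE1 (ERN1) splices the messenger of XBP1, ATF6 is cut free from its membrane, and PERK (EIF2AK3) slows translation and favours ATF4. XBP1 and ATF6 then raise the genes of chaperones and of ERAD. Gene counts report how much messenger is present, and not the splicing of XBP1, the cleavage of ATF6 or the phosphorylation of either kinase.

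Several chaperone promoters carry the letters through which this response is known to act, and they are shown because the results of these genes are compared with those of the rest of the list. The ER stress response element (ERSE) was searched as CCAAT, any 9 bases and CCACG, where NF-Y binds the first block and ATF6 the second. ERSE-II was searched as ATTGG, any 1 base and CCACG. Both were searched on both strands in the 250 bases before each RefSeq start (GRCh38.p14). RefSeq promoters matched 26 of the 30 genes, all but PDIA3, SEC24D, DERL1 and DERL3. An ERSE stood in 6 of the 26, or 23.1%, against 22 of 27305 promoters, or 0.0806%. An ERSE-II stood in 3 of the 26, or 11.5%, against 14 of all promoters, or 0.0513%. None of the other lists described below had an ERSE-II, and 1 had an ERSE, in 1 of 32 promoters of other folding factors. The matches are printed in the direction of the motif, with the fixed letters in capitals and the spacer in lower case, so that the blocks line up.
HSPA5, chr9:125241391-125241409, minus strand, 66 bases before the start: CCAATcggcggcctCCACG
XBP1, chr22:28800603-28800621, minus strand, 52 bases before the start: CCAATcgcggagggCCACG
HSP90B1, chr12:103930216-103930234, plus strand, 194 bases before the start: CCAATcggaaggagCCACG
HSP90B1, chr12:103930321-103930339, minus strand, 89 bases before the start: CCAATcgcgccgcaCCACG
CALR, chr19:12938384-12938402, minus strand, 225 bases before the start: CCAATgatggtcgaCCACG
CANX, chr5:179698778-179698796, plus strand, 151 bases before the start: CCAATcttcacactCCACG
CRELD2, chr22:49918554-49918572, minus strand, 80 bases before the start: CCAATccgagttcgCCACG
HERPUD1, chr16:56932025-56932035, plus strand, 117 bases before the start: ATTGGgCCACG
SDF2L1, chr22:21642114-21642124, minus strand, 188 bases before the start: ATTGGtCCACG

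HYOU1 had an ERSE-II at 2 places, read on the strand opposite to the gene, and its whole upstream stretch is given with that of HSPA5 and of WFS1, the gene of the list with the largest change. Each is printed on the strand of its gene, from 250 bases before the start to the base before it, with the fixed letters of ERSE or ERSE-II in capitals.
HSPA5, chr9:125241344-125241593, minus strand: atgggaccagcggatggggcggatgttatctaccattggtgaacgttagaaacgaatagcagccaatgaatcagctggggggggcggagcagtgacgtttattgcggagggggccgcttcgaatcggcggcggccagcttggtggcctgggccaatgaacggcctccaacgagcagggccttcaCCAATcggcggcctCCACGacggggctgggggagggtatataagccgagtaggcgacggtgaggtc
HYOU1, chr11:119057206-119057455, minus strand: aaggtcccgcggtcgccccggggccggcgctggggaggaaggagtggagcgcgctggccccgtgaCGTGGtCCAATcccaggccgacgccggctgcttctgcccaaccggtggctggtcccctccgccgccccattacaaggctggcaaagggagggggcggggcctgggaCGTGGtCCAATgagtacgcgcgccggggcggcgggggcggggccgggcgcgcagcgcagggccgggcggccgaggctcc
WFS1, chr4:6269600-6269849, plus strand: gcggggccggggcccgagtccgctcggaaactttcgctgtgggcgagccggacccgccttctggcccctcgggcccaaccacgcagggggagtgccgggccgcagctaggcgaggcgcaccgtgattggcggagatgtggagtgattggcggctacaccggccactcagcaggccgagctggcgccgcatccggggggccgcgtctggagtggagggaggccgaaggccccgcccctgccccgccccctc
The core of the unfolded protein response element, TGACGTG, stood in 2 of the 26 promoters (HYOU1, where it overlaps the farther ERSE-II, and DNAJC10), or 7.69%, against 1.71% of all promoters. TGATGCAA, a form of the element through which ATF4 acts with C/EBP factors, stood in 1 of the 26, HERPUD1, against 0.82% of all. The WFS1 stretch held none of these 4 strings in this window. Such matches describe letters and do not show binding.

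With creatine, the list did not move as a block. Of the 29 genes tested, 6 rose and 3 fell (edgeR quasi-likelihood test, adjusted p under 0.05), and the other 20 did not pass. Over the whole table, 9.15% of genes were higher and 10.5% were lower by the same rule. The median log2 fold change, creatine over control, was 0.002 for the 29 genes and 0.011 for all genes tested. Summed over the list, levels were 8056 and 7976 CPM in creatine libraries, against 8019 and 7806.5 CPM in controls. The 2 groups overlapped in this sum. The counts depended on single libraries: 1 higher and 1 lower without creatine replicate 1, 2 and 2 without creatine replicate 2, and 5 and 5 without control replicate 2. In these bulk samples, fewer cells of a type and less RNA per cell cannot be told apart.

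The changes were small, and across the list they ran with the base composition of the transcripts, as did changes in the whole table. The 6 genes that rose did so by 0.23 to 0.33 on the log2 scale, and none of the 29 changed by 2-fold. Of 10 list members with a transcript GC content under 45%, 4 were higher and 0 were lower, against 1179 higher and 12 lower of 5200 genes in that range. Of 9 members at 45 to 50%, 1 was higher (SEC61B) and 0 were lower, against 153 and 66 of 3091 genes, and of 3 at 50 to 55%, 1 was higher (ERN1) and 0 were lower, against 39 and 284 of 2481 genes. Of 7 members at 55% or more, 0 were higher and 3 were lower, against 28 and 1239 of 4507 genes. Median changes within these ranges were 0.20 for members and 0.20 for all genes under 45%, and -0.13 and -0.225 at 55% or more. Spearman's rho between change and GC content was -0.666 across the 29 genes and -0.534 across 15279 genes, all measured in the same 4 libraries. A second fit therefore took out of each library a smooth trend on GC content and gene length, whatever its source, and its values are called trend-adjusted below. In it 1 of the 29 was higher (ERN1) and 1 was lower (WFS1), against 1.15% and 0.980% of all genes tested.

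**Figure D1:**
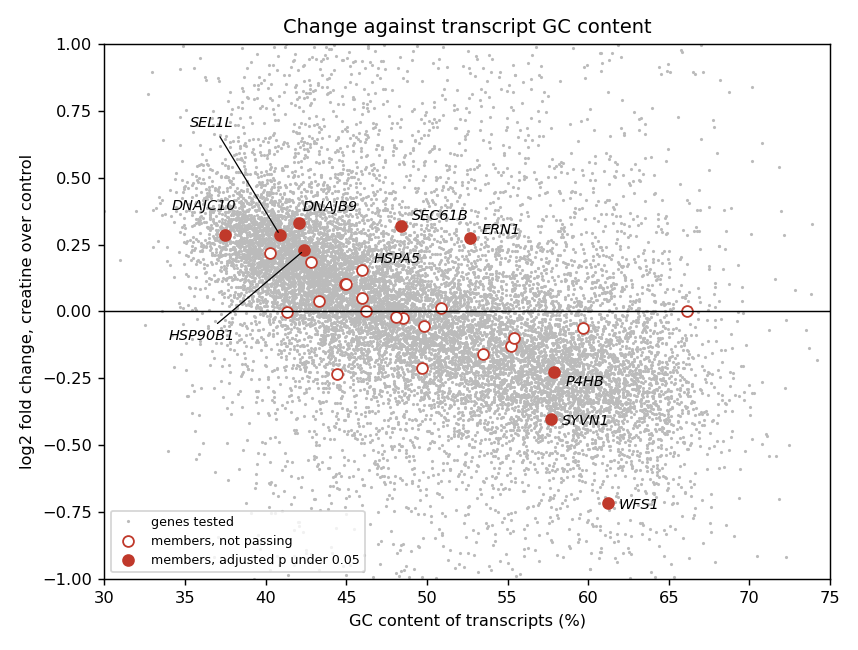
Log2 fold change, creatine over control, against transcript GC content in percent, for 14720 genes tested (grey) and the 29 tested members of the list (red, filled where the adjusted p is under 0.05). A further 582 genes lie outside the axes or have no GC value. Members follow the downward slope of the grey cloud. Among those off the slope, ERN1 and SEC61B lie above it and WFS1 and SEC24D (open circle at 44.4%) below it. Of genes within 1 percentage point of GC content, 88.9% had a lower change than ERN1 and 88.4% a lower one than SEC61B.

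Of the sensors and transcription factors, ERN1 alone rose. ERN1, the IRE1 kinase and RNase (chromosome 17, 64039142 to 64130819, GRCh38), stood at 40.6 and 40.9 CPM in creatine libraries, against 35.4 and 31.9 CPM in controls. Both creatine libraries lay above both controls. The log2 change was 0.275 (SE 0.10, adjusted p = 0.046) and the trend-adjusted one 0.42 (SE 0.09, adjusted p = 0.0177). Genes within 1 percentage point of its GC content of 52.7% had a median change of -0.10, and 88.9% of those 975 genes had a lower value. ERN1 did not pass without creatine replicate 1, creatine replicate 2 or control replicate 2 (adjusted p = 0.179, 0.171 and 0.265), nor with no filter on low counts (0.0534), nor with an offset for GC content alone, where the change was 0.355 (0.0544).

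ATF6, the membrane-bound factor that is released by proteolysis, stood at 129 and 131 CPM with creatine, against 139 and 121 CPM in controls. The creatine values lay between those of the 2 controls, and the log2 change was -0.001 (95% interval -0.16 to 0.15). XBP1, the target of IRE1 splicing, had 280 and 291 CPM with creatine and 289 and 292 CPM in controls, a log2 change of -0.025 (95% interval -0.16 to 0.11). CREB3L2, a membrane-bound factor related to ATF6, had 72.7 and 70.1 CPM with creatine, against 89.0 and 76.1 CPM in controls, and did not pass (-0.21, adjusted p = 0.0771). It passed without control replicate 2 (-0.33, adjusted p = 0.00181), and was at -0.09 without control replicate 1 (adjusted p = 0.575). EIF2AK3, which encodes PERK and was not on the list, was at 14.7 and 16.4 CPM with creatine, against 15.4 and 15.1 CPM in controls (0.03, adjusted p = 0.914).

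WFS1 showed the largest change of the list. It encodes wolframin, an ER membrane protein whose loss causes Wolfram syndrome (chromosome 4, 6269849 to 6303265). Its level was 17.1 and 16.3 CPM in creatine libraries, against 26.8 and 28.1 CPM in controls, with no overlap. The log2 change was -0.72 (SE 0.11, adjusted p = 0.000294), and the trend-adjusted one was -0.46 (95% interval -0.68 to -0.24, adjusted p = 0.0283). It passed in all 11 repeated fits, with values between -0.76 and -0.46. Its GC content of 61.2% is high, and 5.7% of the 804 genes within 1 percentage point of it had a lower change.

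**Figure D2:**
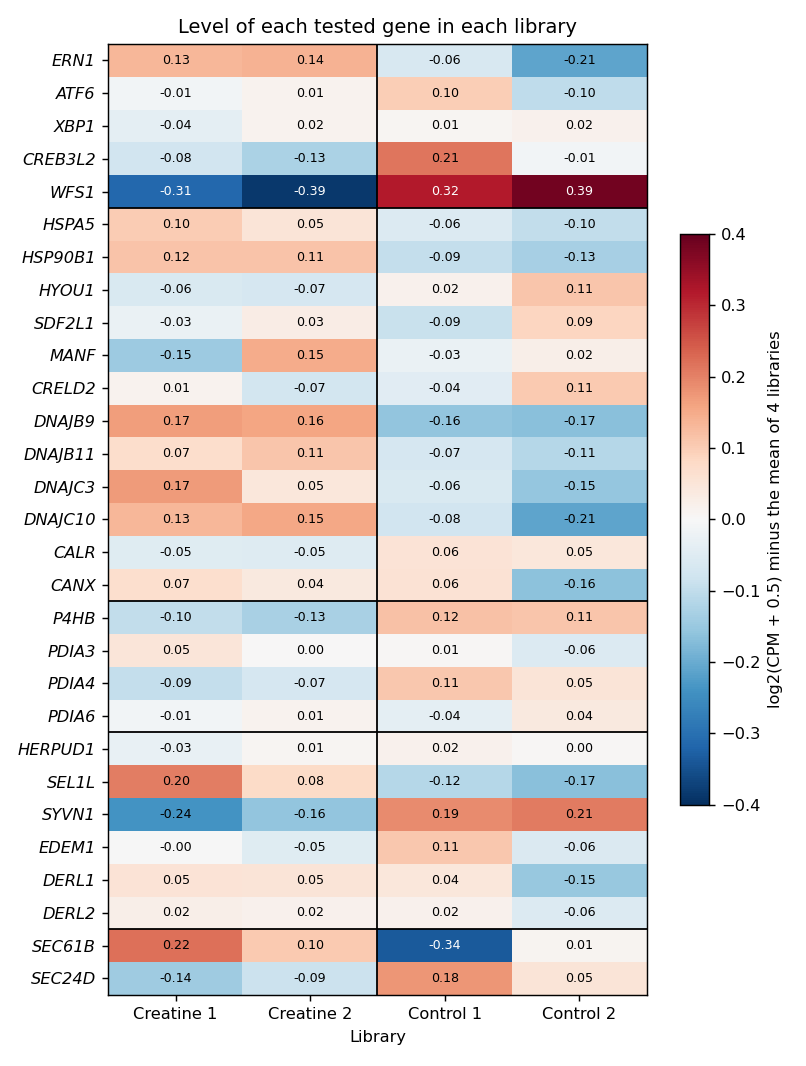
Level of the 29 tested genes in each library, as log2(CPM + 0.5) minus the mean of the 4 libraries. Creatine libraries are on the left, and rows are grouped by role (sensors and factors, chaperones, disulfide isomerases, ERAD, entry and exit). WFS1, an ER membrane protein, is drawn with the sensors and factors. WFS1 and SYVN1 are low in both creatine libraries, DNAJB9 and HSP90B1 are high in both, and control 1 is the lowest library for SEC61B.

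Among the major chaperones, HSP90B1 rose and HSPA5 did not pass. HSPA5 (BiP, chromosome 9, 125234853 to 125241330), the ER member of the HSP70 family and the usual readout of this response, stood at 1219 and 1176 CPM with creatine, against 1092 and 1059 CPM in controls. Both creatine libraries were above both controls. The log2 change of 0.155 (95% interval 0.03 to 0.28) had an adjusted p of 0.0671. HSPA5 passed in 4 of the 11 alternative fits, namely with DESeq2 (adjusted p = 0.0295), a filter of 1 CPM (0.0497), the replicate number as a block (0.0428) and without control replicate 1 (0.0105). Without 1 library at a time the change was 0.12 to 0.18. The trend-adjusted change was 0.09 (adjusted p = 0.46).

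HSP90B1 (GRP94, chromosome 12, 103930107 to 103953645), the ER member of the HSP90 family, stood at 1043 CPM in both creatine libraries, against 902 and 878 CPM in controls. The log2 change was 0.23 (SE 0.06, adjusted p = 0.00892). It did not pass without either creatine library (adjusted p = 0.0985 and 0.0909), nor after trend adjustment (0.07, adjusted p = 0.566). HYOU1 (GRP170), which exchanges the nucleotide on BiP, had 201 and 200 CPM with creatine, against 212 and 227 CPM in controls, and did not pass (-0.13, adjusted p = 0.184). SDF2L1, MANF and CRELD2 are small ER proteins known to be induced by ER stress. Their log2 changes lay between -0.06 and 0.01, and their groups overlapped. The 9 genes with an ERSE or ERSE-II ranged from -0.13 to 0.23 with a median of -0.02, and 1 of them passed, HSP90B1. The 17 with no match in the bases searched had 5 higher and 3 lower and a median of 0.01. Over all genes tested, 9.15% were higher and 10.5% lower. After trend adjustment ERN1 and WFS1 alone passed, both among the 17. PDIA3, SEC24D and DERL1 had no matched promoter and are in neither set. The 2 sets were not tested against each other.

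All 4 J-domain co-chaperones of BiP on the list had both creatine libraries above both controls, as had 29.2% of all genes tested, and 2 passed, against 9.15% of all genes higher. All 4 had a transcript GC content of 37.5% to 42.8%, and of all genes under 45%, 1179 of 5200 were higher. DNAJB9 (ERdj4, chromosome 7, 108569568 to 108574850), which also holds IRE1 inactive with BiP, had 42.8 and 42.6 CPM with creatine, against 34.1 and 33.9 CPM in controls. The log2 change was 0.33 (SE 0.09, adjusted p = 0.0145). DNAJC10 (ERdj5, chromosome 2, 182716041 to 182794464), which reduces disulfides ahead of degradation, had 190 and 193 CPM with creatine, against 164 and 150 CPM in controls (0.28, SE 0.07, adjusted p = 0.00625). DNAJB11 was at 0.18 and DNAJC3 at 0.22, with adjusted p = 0.0888 and 0.0839. After trend adjustment DNAJB9 was at 0.12, DNAJC10 at 0.07, DNAJB11 at 0.04 and DNAJC3 at 0.015, and none passed (adjusted p = 0.58, 0.643, 0.83 and 0.962). DNAJB9 did not pass without either creatine library (adjusted p = 0.0987 and 0.0719), and DNAJC10 did not without creatine replicate 2 (0.0533). THAP5 and PNPLA8 share 6.5% and 3.5% of the exon bases of DNAJB9 on the other strand. The strand setting of the counting is not given in the sources used here.

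The lectin chaperones that hold glycoproteins, calreticulin (CALR) and calnexin (CANX), did not pass. CALR had 1386 and 1382 CPM with creatine, against 1489 and 1479 CPM in controls, a log2 change of -0.10 (95% interval -0.22 to 0.02). The groups did not overlap. CANX had 496 and 487 CPM with creatine, against 493 and 423 CPM in controls (0.10, adjusted p = 0.343). CANX was at 0.215 without control replicate 1 (adjusted p = 0.00723) and at -0.02 without control replicate 2 (0.889).

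Of 4 protein disulfide isomerases, P4HB was lower and 3 did not pass. P4HB (PDI, chromosome 17, 81843159 to 81860694), which is also a subunit of the enzyme that hydroxylates collagen, had 889 and 869 CPM with creatine, against 1030 and 1026 CPM in controls. The log2 change was -0.23 (SE 0.06, adjusted p = 0.00948), and the trend-adjusted one was -0.002 (95% interval -0.11 to 0.11). P4HB did not pass without either creatine library (adjusted p = 0.0752 and 0.117). PDIA4 had 174 and 177 CPM with creatine, against 200 and 193 CPM in controls, and did not pass (-0.16, adjusted p = 0.0905), while it passed without control replicate 2 (-0.20, adjusted p = 0.0277) and with DESeq2 (0.0484). PDIA3 and PDIA6, at 0.05 and 0.002, had overlapping groups. PDIA3P1, a processed copy of PDIA3, took 0.743% as many reads as PDIA3 itself.

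**Figure D3:**
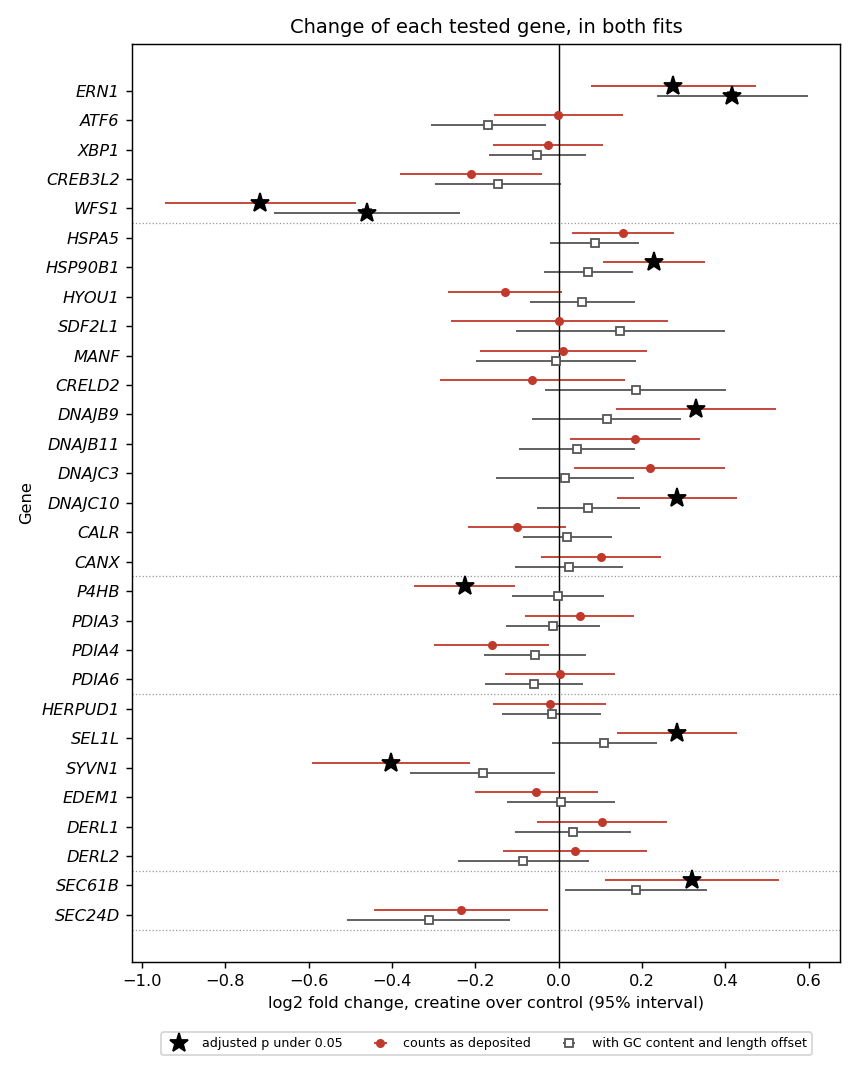
Log2 fold change, creatine over control, with its 95% interval for each of the 29 tested genes, from the counts as deposited (red circles) and with the GC content and length offset (grey squares); stars mark an adjusted p under 0.05. In the first fit 9 genes are starred, and with the offset ERN1 and WFS1 are.

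Within ERAD, partners of the same ubiquitin ligase moved in opposite directions. SEL1L, the adaptor that hands substrates to the ligase (chromosome 14, 81471549 to 81533861), had 183 and 168 CPM with creatine, against 147 and 141 CPM in controls. SYVN1 (HRD1), the ligase itself (chromosome 11, 65121780 to 65134533), had 34.3 and 36.3 CPM with creatine, against 46.4 and 47.0 CPM in controls. Neither gene's groups overlapped. SEL1L rose by 0.28 (SE 0.07, adjusted p = 0.00666) and SYVN1 fell by 0.40 on the log2 scale (SE 0.09, adjusted p = 0.00409). Per library, SEL1L counts were 5.34 and 4.61 times those of SYVN1 with creatine, against 3.16 and 3.01 times in controls. The genes also differ in GC content, 40.9% for SEL1L and 57.7% for SYVN1, and neither passed after trend adjustment (0.11 and -0.18, adjusted p = 0.417 and 0.297). Neither passed without creatine replicate 1 (adjusted p = 0.163 and 0.0556). SYVN1 shares 7.2% of its exon bases with FAU on the same strand and 6.5% with MRPL49 on the other, and those genes had 528% and 237% of its reads. The part of such reads in the SYVN1 value was not tested.

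The other ERAD members did not pass. HERPUD1, which gathers the ligase complex, had 193 and 198 CPM with creatine, against 200 and 198 CPM in controls (-0.02, 95% interval -0.16 to 0.11). EDEM1, which marks misfolded glycoproteins by trimming mannose, was at -0.05, and the membrane proteins DERL1 and DERL2 of the exit channel were at 0.10 and 0.04. DERL3 had 0 counts in all 4 libraries, which allows at most 3 counts, or 0.0501 to 0.0626 CPM. SMARCB1 covers 77.0% of the exon bases of DERL3 on the other strand, and whether reads there were dropped was not tested.

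SEC61B, a subunit of the channel through which new proteins enter the ER (chromosome 9, 99222064 to 99230615), had 60.1 and 55.5 CPM with creatine, against 40.7 and 52.0 CPM in controls. The log2 change was 0.32 (SE 0.10, adjusted p = 0.0268). The controls differed more from each other than control 2 did from the creatine libraries. Without control replicate 1 it was at 0.15 (adjusted p = 0.342), without control replicate 2 at 0.49 (5.54e-05), and it did not pass without creatine replicate 1 (0.174). The trend-adjusted value was 0.185 (adjusted p = 0.282). SEC24D, which selects cargo for the COPII vesicles that leave the ER, had 27.5 and 28.6 CPM with creatine, against 34.5 and 31.6 CPM in controls, and did not pass (-0.23, adjusted p = 0.106). It went against its low GC content of 44.4%, and the trend-adjusted value was -0.31 (adjusted p = 0.0911).

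Both creatine libraries lay above both controls in 11 of the 29 genes and below both in 8, and 10 overlapped. Over all genes tested, 29.2% lay above and 28.9% lay below. The 11 held all 4 J-domain genes, HSPA5 and HSP90B1, and the 8 held P4HB, PDIA4, CALR and HYOU1.

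Per length, the list spanned a wide range of abundance. Levels are given here in TPM, made from counts over the gene length the authors deposited. CALR was the highest, with 2127 and 2087 TPM in creatine libraries and 2335 and 2249 TPM in controls, rank 34 of all genes by its mean over the 4 libraries. HSPA5 came next, with 1299 and 1233 TPM with creatine and 1189 and 1119 TPM in controls. HSP90B1 and P4HB exchanged places between the groups. HSP90B1 had 926 and 910 TPM with creatine and 818 and 772 TPM in controls, and P4HB had 698 and 672 TPM with creatine and 827 and 798 TPM in controls. Their transcripts differ in GC content, 42.4% for HSP90B1 and 57.9% for P4HB. The difference between their log2 changes was 0.455, and 0.073 after trend adjustment. XBP1 averaged 390 ± 5.97 TPM with creatine and 402 ± 6.4 TPM in controls (SD, n = 2 each). The sensors were far lower, with ATF6 at 68.1 ± 0.0363 TPM with creatine and 69.2 ± 8.31 TPM in controls, and with ERN1 at 15.5 ± 0.127 TPM with creatine and 13 ± 1.23 TPM in controls (SD, n = 2 each). WFS1 averaged 15.3 ± 0.741 TPM with creatine and 25.5 ± 0.34 TPM in controls (SD, n = 2 each).

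**Figure D4:**
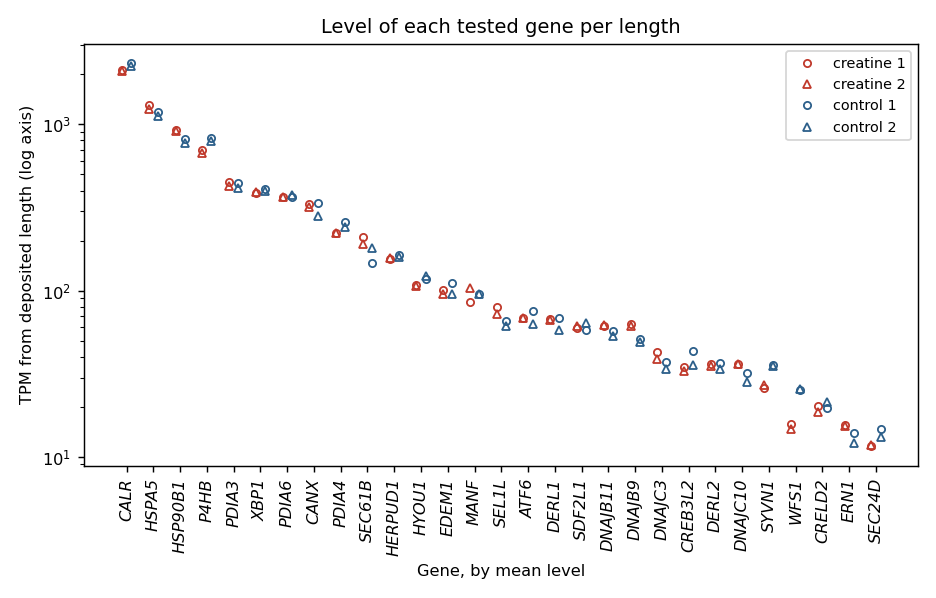
Level of the 29 tested genes per length, in TPM on a log axis, ordered by mean level, with each library as a point (creatine red, on the left of each pair, and control blue). Levels run from CALR at 2087 TPM or more to SEC24D between 11.6 and 14.8 TPM, and the gap between groups is widest for WFS1.

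The rest of the pathway was described from 8 lists of other genes, 173 in the table and 170 tested. Of these 39 were higher with creatine and 17 were lower, with a median change of 0.05, and 5 and 0 after trend adjustment. The counts were 9 and 4 without creatine replicate 1, and 24 and 6 without creatine replicate 2. Protein entry into the ER had the most calls, with 13 of 30 higher and 0 lower and a median of 0.19, against 9.15% higher and a median of 0.011 over all genes tested. Among all genes with a GC content under 45%, 1179 of 5200 were higher, with a median of 0.20. The list itself was not split by GC content, and not all of its genes were in that range. After trend adjustment 1 of the 30 was higher and the median was 0.05. The number of calls in this list depended on single libraries, and leaving out 1 library leaves 1 in its group. The median was 0.187 without creatine replicate 1 and 0.171 without creatine replicate 2. It was 0.179 without control replicate 1 and 0.187 without control replicate 2. SRP9, of the particle that brings ribosomes to the ER, rose to 174 and 177 CPM with creatine, against 135 and 133 CPM in controls (0.39, adjusted p = 0.000639). SEC62, of the entry channel, rose by 0.43 (adjusted p = 0.00073). After trend adjustment SRP9 was at 0.06 and SEC62 at 0.20, neither past the threshold (adjusted p = 0.753 and 0.128). SSR4, of the translocon-associated complex, passed after trend adjustment alone (0.44, adjusted p = 0.00988), and was named after its value was seen.

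In the PERK and ATF4 arm, 4 of 17 genes were higher and 2 were lower, against 9.15% and 10.5% of all genes tested. The number of calls depended on single libraries. The arm's median change was 0.028, and lay between -0.052 and 0.049 without 1 library at a time. ATF4 had 759 and 818 CPM with creatine, against 824 and 848 CPM in controls (-0.08, adjusted p = 0.382). DDIT3 (CHOP), a death-linked target of ATF4, had 198 and 200 CPM with creatine, against 152 and 176 CPM in controls, and rose by 0.285 (adjusted p = 0.00864). Without control replicate 1 it did not pass (0.18, adjusted p = 0.0751). DDIT3 passed with an offset for GC content alone (0.31, adjusted p = 0.0317) and not with the trend on GC content and length (0.20, adjusted p = 0.0929). NUPR1, a small stress-induced chromatin protein, had 44.8 and 49.4 CPM with creatine, against 31.6 and 36.3 CPM in controls, and rose in both fits (0.47 and 0.58, adjusted p = 0.00223 and 0.00396). CEBPG, a partner of ATF4, rose by 0.37, while CHAC1 and SESN2, targets of ATF4, fell by 0.36 and 0.33 on the log2 scale. After trend adjustment 3 of the 17 passed, all higher, against 1.15% higher of all genes tested. They were NUPR1, TRIB3 (0.25) and ATF3 (0.22), of which the last 2 were named after their values were seen. From the counts as deposited, TRIB3 was at 0.01 with overlapping groups (adjusted p = 0.933), and ATF3 was at 0.17 (adjusted p = 0.0632). Neither TRIB3 nor ATF3 passed with an offset for GC content alone (adjusted p = 0.0594 and 0.125).

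The remaining lists are read against 9.15% higher and 10.5% lower over all genes tested, and their counts changed when single libraries were left out. Other ERAD genes had 4 higher and 4 lower of 25, 0 and 1 without creatine replicate 1, and 1 and 2 without creatine replicate 2. VCP, the ATPase that pulls substrates out of the membrane, and its cofactor NPLOC4 were lower (-0.31 and -0.26), and UBXN4 and ERLEC1 were higher (0.27 and 0.26). Glycosylation and the calnexin cycle had 7 higher and 1 lower of 22, with STT3B (0.25) and UGGT2 (0.38) higher and the glucosidase MOGS (-0.26) lower. That list had 1 and 0 without creatine replicate 1, 2 and 0 without creatine replicate 2, 2 and 2 without control replicate 1, and 6 and 3 without control replicate 2. Other folding factors had 6 higher and 4 lower of 35, among them SELENOF (0.33), DNAJB14 (0.47), TXNDC11 (-0.34) and FKBP10 (-0.21), and had 2 and 0 without creatine replicate 1 and 6 and 0 without creatine replicate 2. Of 22 COPII and cargo receptor genes, 3 were higher, LMAN1 (0.30) and SAR1B (0.26) among them, and 5 were lower, with SEC16A (-0.36) and SEC24C (-0.28). These were 0 and 2 without creatine replicate 1, 1 and 2 without creatine replicate 2, 1 and 4 without control replicate 1, and 3 and 3 without control replicate 2. The Golgi proteases that cut ATF6 split, MBTPS2 at 0.35 and MBTPS1 at -0.205, and were the only calls among 11 other transducers, which had 0 and 0 without creatine replicate 1, 1 and 0 without creatine replicate 2 or control replicate 1, and 1 and 2 without control replicate 2. Of 8 ER-phagy receptors CCPG1 rose (0.62), and none passed without creatine replicate 1. None of these genes passed after trend adjustment. KRTCAP2, a subunit of the oligosaccharyltransferase, did so in the glycosylation list (0.57, adjusted p = 0.0226), and was named after its value was seen.

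**Figure D5:**
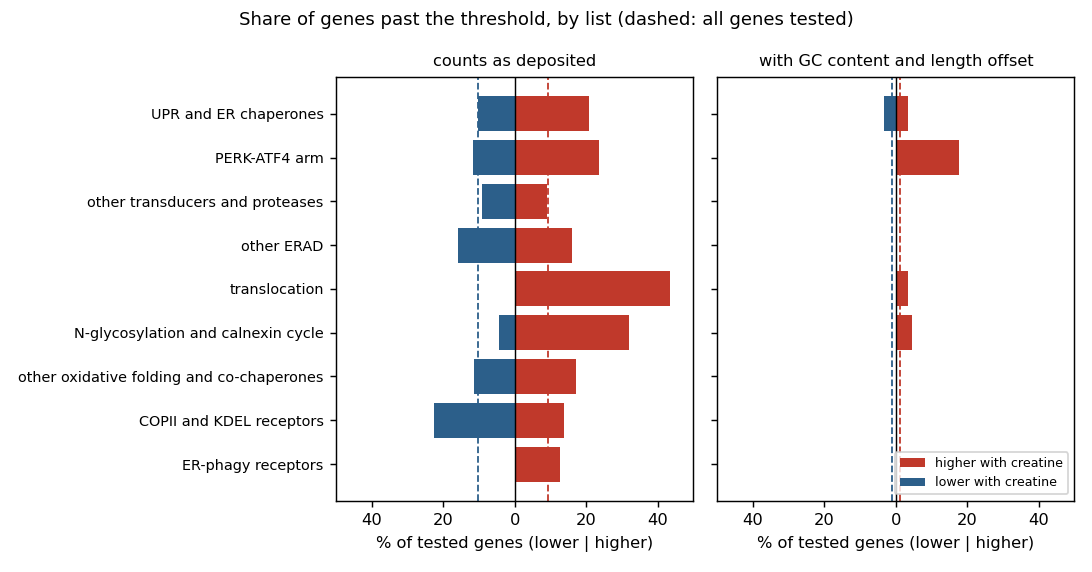
Share of tested genes in each list that were higher (red, to the right) or lower (blue, to the left) with creatine at an adjusted p under 0.05, from the counts as deposited and with the GC content and length offset. Dashed lines give the share over all genes tested. Protein translocation has the largest share higher in the first fit, 13 of 30, and 1 of 30 with the offset.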

How the data were processed

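RNA was sequenced from 2 creatine-treated and 2 control libraries of human cells labelled DLD-1. Per the submitters' processing notes, FastQC 0.11.9, HISAT2 2.2.1, featureCounts, DESeq2 and the GRCh38 build were used; the sources used here give neither strand settings nor an annotation release. The authors deposited 1 table of raw read counts per gene, with gene lengths, and its columns were matched to samples by title.

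Genes with low counts were removed (filterByExpr), libraries were scaled by TMM, and creatine was set against control with edgeR 4.0.16 (R 4.3.3), quasi-likelihood test, Benjamini-Hochberg adjustment over 15302 genes and a threshold of 0.05. The procedure was tested on simulated counts, in which changes did not depend on GC content or length. That simulation cannot show how the calls behave under the trend seen here. CPM used these scaled library sizes, and TPM the deposited lengths. The median of the total residual degrees of freedom was 22.9, most of it shared across genes. GC content and coordinates came from GENCODE 29, and promoters from RefSeq GRCh38.p14. The trend-adjusted fit used an offset from a smooth of each library on GC content and log2 length (mgcv 1.9.3). Alternatives were other scaling, other filters, DESeq2 1.42.0, a GC offset alone, the replicate number as a block, and leaving out 1 library at a time.

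The members and lists were chosen with earlier results of these data known. Every member past the threshold, ERN1, ATF6, XBP1 and HSPA5 were named, with up to 2 genes per direction of the smallest adjusted p in each other list, and EIF2AK3, ATF4 and DDIT3. Total counts lay between 48249693 and 59860043, so that 3 counts, the limit that a count of 0 allows, were 0.0501 to 0.0626 CPM, which covers counting error only.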

Additional observations from a re-analysis of the deposited data

How the results depend on the processing

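None of the 9 members past the threshold changed direction under any of the 11 alternatives, and WFS1 alone passed in all 11. All 9 had groups that did not overlap, so leaving out 1 library could hardly change a direction. With a GC offset alone, 147 genes of the whole table were higher and 170 lower, with 0 and 1 among members and 4 and 0 in the other lists. With GC and length, these were 176 and 150, 1 and 1, and 5 and 0, and the members' median was 0.015 against 0.002, with an SD of 0.012 between libraries. Leaving out 1 library at a time gave 561 to 1378 genes higher and 601 to 1738 lower, 1 to 7 and 1 to 5 members, 9 to 39 and 4 to 21 genes of the other lists, and a members' median of -0.018 to 0.031. The cause of these shifts was not tested, beyond the loss of a library.

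Creatine and control libraries share replicate numbers, and deviations of same-numbered libraries had a correlation of -0.0228 over 15302 genes. With 2 libraries per group, this value cannot show whether same-numbered libraries shared a culture or a day. The labels do not say what the number marks. With the replicate block, 1844 genes were higher and 1951 lower, with 7 and 4 among members, and ATF6 was at 0.002.

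Sign changes were in genes that did not pass. With the GC offset, ATF4 was at 0.054, CALR 0.04, CANX -0.013, CRELD2 0.151, DERL1 -0.007, DERL2 -0.117, DNAJC3 -0.006, EIF2AK3 -0.152, HYOU1 0.008, PDIA3 -0.036 and PDIA6 -0.079. With GC and length, ATF4 was at 0.024, CALR 0.021, CRELD2 0.185, DERL2 -0.085, EDEM1 0.005, EIF2AK3 -0.129, HYOU1 0.057, MANF -0.006, PDIA3 -0.014 and PDIA6 -0.059. With a 1 CPM filter ATF6 was at 0.002. PDIA6 and SDF2L1 were at -0.001 and -0.002 with DESeq2, and both at -0.001 with no filter. Without 1 library, ATF6 ranged from -0.112 to 0.103, XBP1 from -0.057 to 0.001, EIF2AK3 from -0.059 to 0.106, MANF from -0.15 to 0.151, PDIA6 from -0.038 to 0.028, SDF2L1 from -0.088 to 0.08, EDEM1 from -0.149 to 0.031, CANX from -0.018 to 0.215, CRELD2 from -0.139 to 0.001, DERL1 from -0.005 to 0.206 and DERL2 from -0.01 to 0.075. Precision limits what could be called: the median SE of the 29 tested members was 0.075 on the log2 scale.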
